A study of Mus musculus with 9 samples.

Results

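Transcripts of 10 genes that encode antioxidant enzymes were followed in whole mouse kidney: the superoxide dismutases Sod1, Sod2 and Sod3, the glutathione peroxidases Gpx1, Gpx3 and Gpx4, the peroxiredoxins Prdx3 and Prdx5, and Nqo1 and Gclc, which are well-known targets of the transcription factor NRF2. The genes were taken by symbol. All 10 were found among the 22637 gene symbols of the count tables, and 10 of 10 were among the 17315 genes with enough counts to be tested. The study compared 3 groups of 129X1/SvJ mice at 9 weeks of age, with 3 libraries per group. The wild-type group (WT) received no treatment. Both other groups carried the Col4a3 -/- genotype, and one was given PBS (KO_PBS) and the other antimiR-21 (KO_antimiR21), an inhibitor of the microRNA miR-21. Mice without Col4a3, a chain of the type IV collagen on which the glomerular filter rests, model Alport syndrome, an inherited kidney disease with progressive scarring. The wild-type mice were untreated, so genotype was compared together with the PBS treatment, and the dose and route of the inhibitor are not stated in the labels. Whether each library was made from its own animal is not stated in the labels, although each deposited name carries its own number, so the p-values reflect only how far these samples spread.

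Superoxide dismutases turn superoxide, a by-product of respiration and of oxidases, into hydrogen peroxide, and the enzymes of this set differ in place: Sod1 is mainly cytosolic, Sod2 sits in the mitochondrial matrix and Sod3 is secreted. Glutathione peroxidases and peroxiredoxins then reduce hydrogen peroxide and lipid peroxides with electrons from glutathione or thioredoxin. NRF2 (gene Nfe2l2), held low by KEAP1 in unstressed cells, binds antioxidant response elements and raises enzymes of quinone detoxification and glutathione synthesis, and the tubules of the kidney, rich in mitochondria, carry a high oxidative load.

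The libraries held 26448275 to 31786624 expected counts, the read counts per gene that RSEM estimates. Values below are CPM, counts relative to the library total after TMM scaling, and tests are edgeR quasi-likelihood F tests over all 17315 genes, with Benjamini-Hochberg adjusted p-values and a threshold of 0.05. The targeted gene Col4a3 stood at 257 to 371 CPM in WT, 44.3 to 94.3 CPM in KO_PBS and 70.6 to 138 CPM in KO_antimiR21. Y-linked genes marked WT 2 and all 6 knockout libraries as male, and WT 1 and WT 3 as female. The deposited names of WT 1 and WT 3 hold the letter F and that of WT 2 the letter M. The deposited names also carry a code of unstated meaning: L5 marks KO_PBS 3 and every inhibitor-treated library, and L4 marks the 5 others. The 20 most abundant genes took 21.1% to 22.1% of the counts in WT, 14.1% to 16.1% in KO_PBS, and 21.4%, 15.6% and 20.9% in KO_antimiR21 1, 2 and 3. KO_antimiR21 2 therefore stood apart from the other libraries of its group and within the range of KO_PBS by this measure.

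In the knockout given PBS, 6 of the 10 transcripts were lower than in wild type, and none was higher. The called genes were all 3 superoxide dismutases, both peroxiredoxins and Nqo1. Across all tested genes 9.85% were called lower and 14.6% higher in the same comparison. That was 1705 genes lower and 2521 higher, a split that became 904 and 3753 with library size alone as the scaling, when the median of all genes moved from -0.03 to 0.25 and 4 of the 10 were called lower against 5.22% of all genes. No glutathione peroxidase passed the test, nor did Gclc. In the knockout given antimiR-21, all 10 estimates lay above those of the PBS group (Gpx1 turned below it within the L5 libraries, with the code as a covariate and without KO_antimiR21 1), but none passed the test, and every gene's libraries overlapped between these groups.

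**Figure D1:**
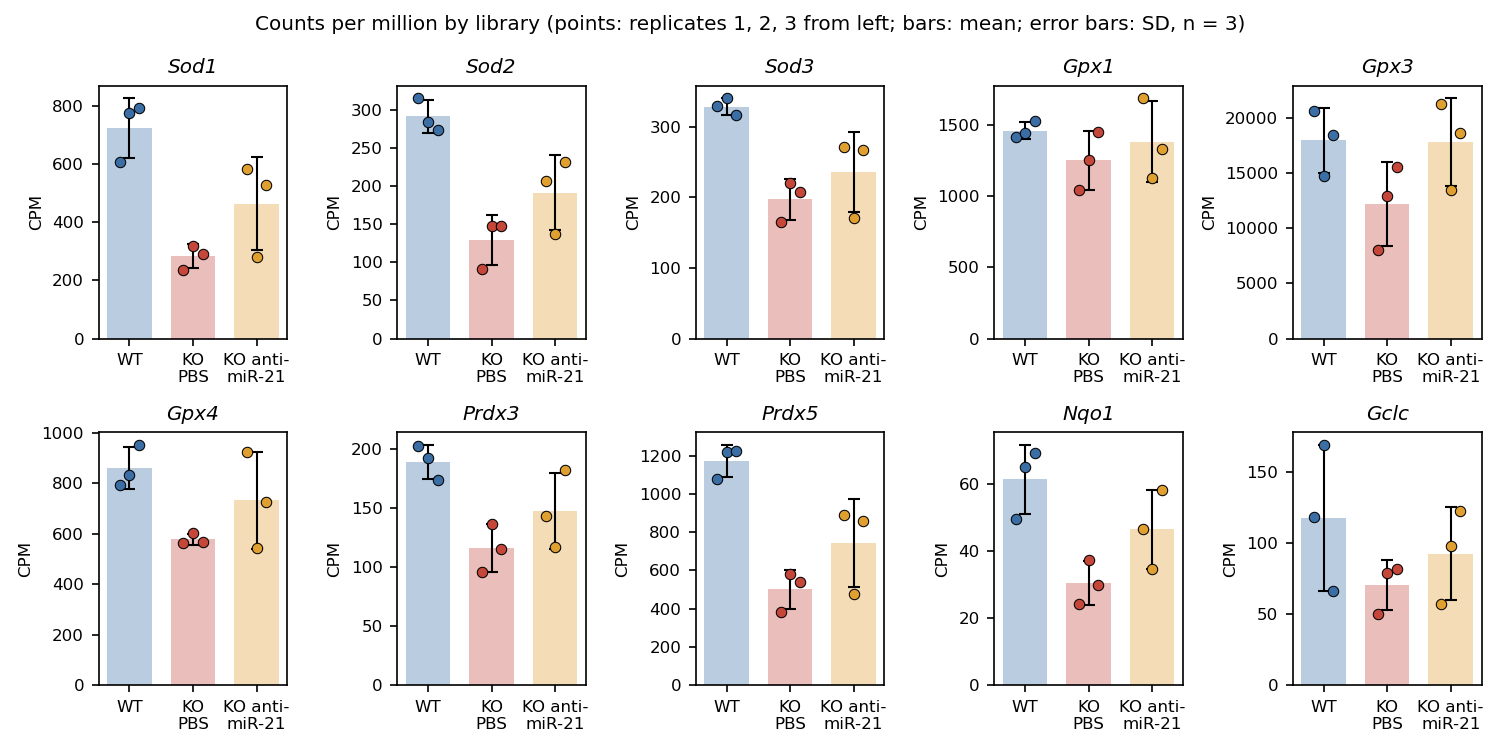
CPM (vertical axes, each from 0) of the 10 genes in WT, KO PBS and KO antimiR-21 kidneys; points are libraries, bars are means and error bars SD of 3 libraries. For Sod1 the 3 KO PBS libraries sit between 237 and 318 CPM, all under the lowest WT library at 608 CPM, while Gpx1 and Gpx3 overlap between groups.

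Sod1, the copper and zinc enzyme of the cytosol, was measured at 608, 775 and 793 CPM in WT 1, 2 and 3. KO_PBS 1, 2 and 3 held 237, 318 and 293 CPM. The inhibitor-treated libraries held 584, 282 and 527 CPM. Every KO_PBS library was below every WT library, and KO_antimiR21 2 fell inside the KO_PBS range while the other two libraries of its group lay above it. Sod1 in KO_PBS was at 39.0% of its WT level, a log2 fold change of -1.36 ± 0.27 (SE), with an edgeR adjusted p of 0.00887. It was the largest decrease of the 10 genes. In bulk tissue, fewer cells of a type and less RNA per cell cannot be told apart, here or for the genes that follow.

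Sod2, the manganese enzyme of mitochondria, stood at 316, 285 and 274 CPM in WT 1, 2 and 3 and at 91.0, 148 and 148 CPM in KO_PBS 1, 2 and 3. The groups did not overlap, and KO_PBS 1 was the lowest library. The change was -1.18 ± 0.24 (edgeR adjusted p = 0.00991), which left 44.2% of the WT level. The KO_antimiR21 libraries were at 207, 137 and 231 CPM, with the second of them again inside the KO_PBS range.

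Sod3, the secreted enzyme of the extracellular matrix, varied little among wild-type kidneys, at 329, 341 and 317 CPM. In KO_PBS 1, 2 and 3 it was at 165, 220 and 207 CPM. No KO_PBS library reached the WT range, and the change was -0.74 ± 0.20 (edgeR adjusted p = 0.0276). KO_antimiR21 1, 2 and 3 were at 271, 171 and 267 CPM, all below WT. The call for Sod3 was near the threshold: leaving out any 1 of the WT or KO_PBS libraries raised the edgeR adjusted p to between 0.0544 and 0.0944.

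The glutathione peroxidases of the set are selenoproteins: the codon TGA, normally a stop, is read as selenocysteine at the active site. The coding sequences (GENCODE vM21, GRCm38, longest coding transcript) held a single in-frame TGA in each of the 3 genes, annotated as selenocysteine, and none in the other 7. The surrounding bases are shown, TGA in capitals, because this codon is the feature that separates these genes from the rest of the set. It is codon 47 of 201 in Gpx1, codon 73 of 226 in Gpx3 and codon 129 of 253 in Gpx4. Gpx1 and Gpx4 have 3 annotated coding transcripts each, and the codon number holds only for the transcript used.
Gpx1: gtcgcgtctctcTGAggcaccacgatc
Gpx3: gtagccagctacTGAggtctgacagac
Gpx4: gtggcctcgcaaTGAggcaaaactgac

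Gpx1, the cytosolic glutathione peroxidase, differed least. WT 1, 2 and 3 were at 1414, 1444 and 1527 CPM, and KO_PBS 1, 2 and 3 at 1044, 1258 and 1455 CPM. The groups overlapped, because KO_PBS 3 lay within the WT range. The change was -0.22 ± 0.20, with a 95% interval from -0.69 to 0.24 and an edgeR adjusted p of 0.479. Without TMM scaling its sign turned, at 0.052. KO_antimiR21 1, 2 and 3 were at 1692, 1131 and 1330 CPM, and the first of these was the highest of the 9 libraries for this gene.

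Gpx3, the plasma glutathione peroxidase that the kidney secretes, was the most abundant transcript of the set by a wide margin and alone took 1.33% to 1.85% of all counts in WT. It stood at 20669, 14774 and 18519 CPM in WT 1, 2 and 3, and at 8059, 12970 and 15614 CPM in KO_PBS 1, 2 and 3. KO_PBS 3 lay above WT 2, so the groups overlapped. The change was -0.56 ± 0.33 (95% interval -1.31 to 0.19, edgeR adjusted p = 0.26). In the KO_antimiR21 libraries Gpx3 was at 21333, 13445 and 18696 CPM, a mean of 17825 ± 4016 CPM (SD, n = 3) against 17987 ± 2983 CPM in WT.

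Gpx4, which reduces lipid peroxides within membranes, was at 794, 833 and 953 CPM in WT 1, 2 and 3. KO_PBS 1, 2 and 3 held 563, 604 and 565 CPM, a narrow range below every WT library. Its change was -0.58 ± 0.20, and it missed the threshold with an edgeR adjusted p of 0.0704. It did pass when only the WT and KO_PBS libraries were fitted (adjusted p = 0.0298), by DESeq2 (0.0183) and without KO_antimiR21 1 or 2 (0.0432 and 0.0268). In the other 16 alternatives it did not pass, with adjusted p-values up to 0.381, and with library size alone as the scaling its estimate was -0.30 (adjusted p = 0.269). KO_antimiR21 1, 2 and 3 were at 925, 544 and 724 CPM, spread over the ranges of both other groups. A second row that differs only in letter case (GPx4) held 14.63 to 55.12 counts per library and was kept apart from Gpx4, which held 16871 counts or more.

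Prdx3, the mitochondrial peroxiredoxin, was measured at 202, 192 and 173 CPM in WT 1, 2 and 3 and at 95.9, 136 and 115 CPM in KO_PBS 1, 2 and 3. The groups did not overlap. The change was -0.71 ± 0.19 (edgeR adjusted p = 0.0276), or 61.2% of the WT level. Leaving out WT 1, WT 2, KO_PBS 1 or KO_PBS 3 raised the adjusted p to between 0.0646 and 0.0954. The KO_antimiR21 libraries were at 143, 117 and 182 CPM, and the third lay within the WT range.

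Prdx5, a peroxiredoxin of mitochondria, peroxisomes and cytosol, showed a decrease close in size to that of Sod1. It was at 1076, 1220 and 1226 CPM in WT 1, 2 and 3 and at 384, 579 and 541 CPM in KO_PBS 1, 2 and 3. No library overlapped, and the change was -1.23 ± 0.26 (edgeR adjusted p = 0.0117). KO_antimiR21 1, 2 and 3 were at 890, 479 and 861 CPM, all below WT, with the second inside the KO_PBS range.

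Nqo1, a quinone reductase and a standard readout of NRF2 activity, was at 49.7, 65.2 and 69.5 CPM in WT 1, 2 and 3. KO_PBS 1, 2 and 3 held 24.2, 37.3 and 30.04 CPM, below every WT library. The change was -1.01 ± 0.23 (edgeR adjusted p = 0.015), which left 49.6% of the WT level. KO_antimiR21 1, 2 and 3 were at 46.7, 34.6 and 58.3 CPM, between and overlapping both groups.

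Gclc, the catalytic subunit of the enzyme that begins glutathione synthesis, was the most variable of the set within WT. WT 1, 2 and 3 were at 119, 169 and 66.2 CPM, a coefficient of variation of 43.7%. KO_PBS 1, 2 and 3 were at 49.9, 79.1 and 81.9 CPM, so the groups overlapped at WT 3. The change was -0.75 ± 0.38 (95% interval -1.60 to 0.11, edgeR adjusted p = 0.188), with a wider error than any other gene of the set. It was -0.38 without WT 2 (adjusted p = 0.53) and -0.47 with library size alone as the scaling (adjusted p = 0.369). KO_antimiR21 1, 2 and 3 were at 57.3, 98.0 and 123 CPM.

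**Figure D2:**
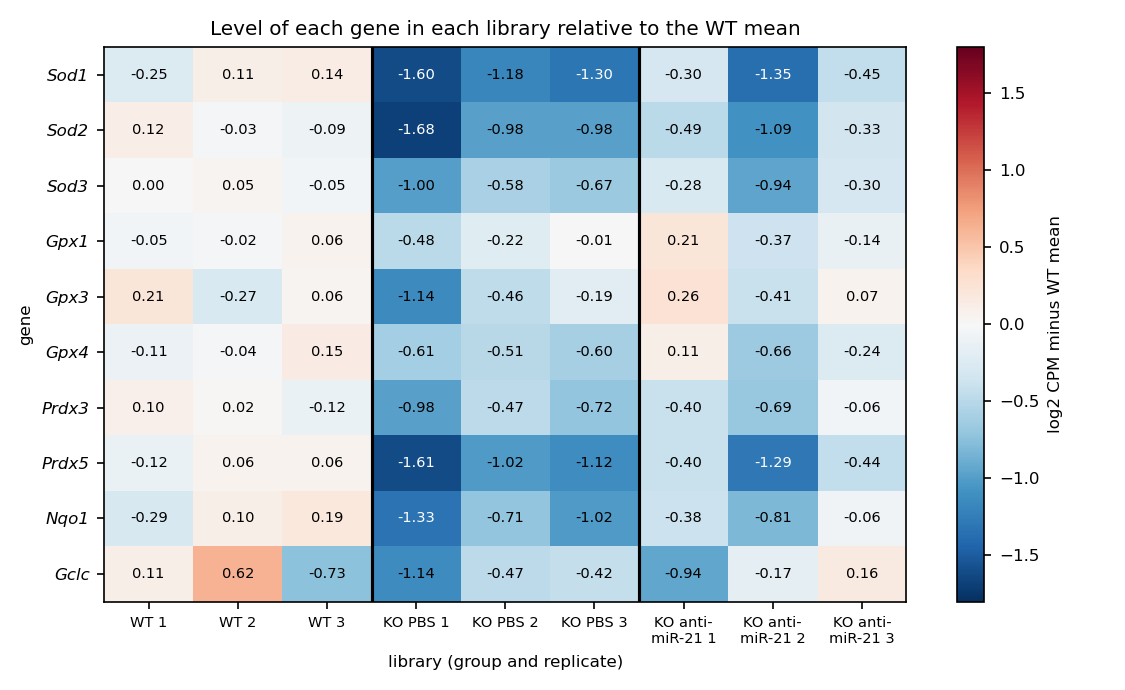
log2 CPM of each gene (rows) in each library (columns) minus the gene's mean over the WT libraries; blue is below and red above the WT mean. KO PBS 1 is the darkest column, with a median over the 10 genes of -1.14, and KO antimiR-21 2 is the darkest of its group at -0.75.

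The 10 genes tended to be low in the same libraries. KO_PBS 1 was the lowest of the 9 libraries for 9 of the 10 genes, the exception being Gpx4, which was lowest in KO_antimiR21 2. The median over the 10 genes, relative to the WT mean on the log2 scale, was -1.14, -0.54 and -0.69 in KO_PBS 1, 2 and 3. It was -0.34, -0.75 and -0.19 in KO_antimiR21 1, 2 and 3. For 7 of the 10 genes (the 6 called ones and Gpx4) every KO_PBS library lay below every WT library, and 20.5% of all tested genes did the same. The median log2 fold change of the 10 genes was -0.74, against -0.03 for all tested genes. Without KO_PBS 1, 4 of the 10 passed in place of 6 (Sod1, Sod2, Prdx5 and Nqo1), and 667 genes in all (3.8%) were called lower in place of 1705.

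Sex and the library code were unevenly spread over WT and KO_PBS. With sex as a covariate the estimates were close to those above, at -1.46 for Sod1, -1.15 for Sod2, -0.79 for Sod3, -0.73 for Prdx3, -1.28 for Prdx5 and -1.10 for Nqo1. None then passed, with edgeR adjusted p-values of 0.0712 to 0.15, and no gene of the whole table did, although 4389 genes had an unadjusted p under 0.05. Among male libraries alone, with WT 2 as the only wild type and assumed to vary like the other groups, Sod1 was at -1.43 (adjusted p = 0.0938) and Prdx5 at -1.26 (adjusted p = 0.117). Gclc moved most, from -0.75 to -1.27 with sex as a covariate (adjusted p = 0.131), and Gpx3 from -0.56 to -0.27 (adjusted p = 0.793). Within the L4 libraries, 5 of the 10 genes were called lower, where 6.64% of all genes were, with Prdx3 at an adjusted p of 0.063, and Sod1 was at -1.38 (adjusted p = 0.0148). With the code as a covariate 4 were called lower, against 6.21% of all genes, and Sod3 and Prdx3 had adjusted p-values of 0.06 and 0.0714.

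**Figure D3:**
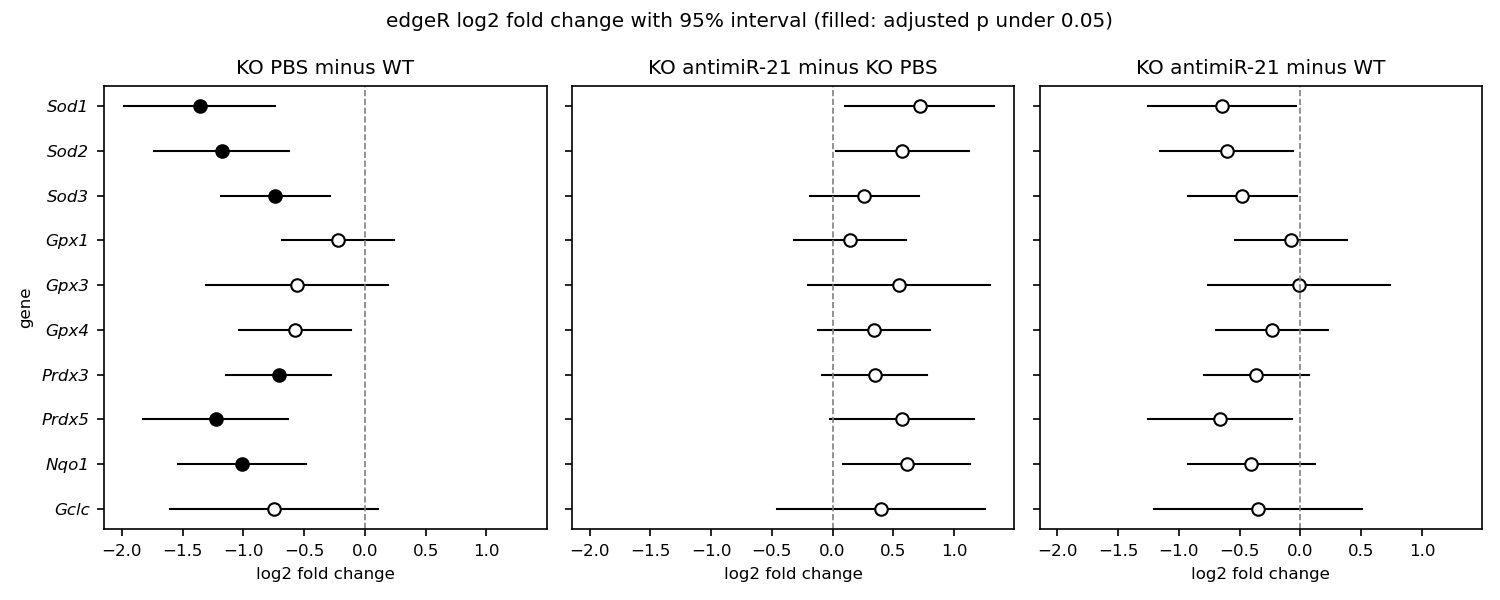
edgeR log2 fold change (horizontal axis) of the 10 genes in the 3 comparisons; points are estimates, lines are 95% intervals and filled points have an adjusted p under 0.05. In KO PBS minus WT 6 genes are filled, all below 0, from -0.71 for Prdx3 to -1.36 for Sod1, and no gene is filled in the other comparisons.

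The comparison of the inhibitor with PBS within the knockout asked whether these transcripts changed on blocking miR-21. Sod1 was 0.72 ± 0.27 higher on the log2 scale (95% interval 0.10 to 1.33), Nqo1 0.61 ± 0.23 (0.09 to 1.13) and Sod2 0.57 ± 0.24 (0.03 to 1.12). These 3 had unadjusted p-values of 0.0265, 0.0271 and 0.0417, and each had an edgeR adjusted p of 0.707. Prdx5 followed at 0.57 ± 0.26 (adjusted p = 0.707), Gpx3 at 0.55 ± 0.33 (0.747), Gclc at 0.40 ± 0.38 (0.854), Prdx3 at 0.35 ± 0.19 (0.726) and Gpx4 at 0.34 ± 0.20 (0.743). Sod3 at 0.26 ± 0.20 (95% interval -0.19 to 0.71) and Gpx1 at 0.14 ± 0.20 (-0.32 to 0.61) had the smallest estimates. The intervals of Sod1, Sod2, Prdx5, Gpx3, Nqo1 and Gclc reach beyond a doubling, so these data do not show that the levels were alike.

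No gene of the table passed in this comparison by edgeR (0% called, 1203 genes at an unadjusted p under 0.05), while DESeq2 called 7 higher and 12 lower, none of them among the 10. The libraries of all 10 genes overlapped between the groups, and 3.83% of all tested genes were higher without overlap. The median estimate of the 10 was 0.47, against -0.01 for all genes. Single libraries moved these estimates in both directions. Without KO_antimiR21 2, 9 of the 10 estimates were larger (Gclc was not), with Sod1 at 1.001 (adjusted p = 0.134) and Prdx5 at 0.83 (0.155). Without KO_antimiR21 1, Sod1 was at 0.52, Sod3 at 0.15, Gpx4 at 0.13 and Gpx1 at -0.027. Without KO_antimiR21 3, Prdx3 was at 0.19, Nqo1 at 0.44 and Gclc at 0.16, and without KO_PBS 1 Gpx3 was at 0.34, Sod2 at 0.40 and Gpx1 at 0.050. With library size alone as the scaling, Sod3 was at 0.12 and Gpx4 at 0.19. No gene of the table passed in any of these, and of the 10 genes 7 had an unadjusted p under 0.05 without KO_antimiR21 2, but 0 without KO_antimiR21 1, KO_antimiR21 3 or KO_PBS 1. Only KO_PBS 3 shared the L5 code with the inhibitor group. Within L5, with that lone library assumed to vary like the others, Sod1 was at 0.67, Sod2 at 0.37, Gpx3 at 0.19 and Gpx1 at -0.07, each with an adjusted p of 0.999.

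Against wild type, none of the 10 was called in the inhibitor-treated knockout, where 0.427% of all genes were called lower. Sod1 stood at -0.64 ± 0.27 (edgeR adjusted p = 0.226), Prdx5 at -0.66 ± 0.26 (0.198), Sod2 at -0.61 ± 0.24 (0.201) and Sod3 at -0.48 ± 0.20 (0.223). In these 4 every KO_antimiR21 library lay below every WT library, as it did for 9.83% of tested genes. Gpx3 had an estimate of -0.01 ± 0.33 (adjusted p = 0.99) and Gpx1 of -0.08 ± 0.20 (0.884). This comparison shares its libraries with the other comparisons, so its values are not a separate measurement.

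miR-21 pairs with its targets through its seed, bases 2 to 8, and the mature RNA is shown with the seed in capitals because the inhibitor is directed at it (RefSeq, GRCm38.p6, chr11:86584120-86584141, minus strand). The matching site in a transcript is ATAAGCT.
mmu-miR-21a-5p: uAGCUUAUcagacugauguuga
In the longest 3' untranslated region annotated for each gene (GENCODE vM21), a site was found in 1 of the 10, Sod3, at base 2618 of 2702, against 7.796% of 11762 tested genes searched. It is printed with the matched bases in capitals.
Sod3 site: tagatgttaggATAAGCTgtttctcagaa
Sod3 had an estimate of 0.26 ± 0.20 with the inhibitor (edgeR adjusted p = 0.808). Whether genes with and without a site differ was not tested. A match of letters does not show that the site is used.

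The promoter window of each gene, 250 bases before to 50 after its start (RefSeq, GRCm38.p6), was searched on both strands for the core antioxidant response element TGACNNNGC. A window was found for 8 of the 10 genes, and 1 of the 8 held a match, Sod1, on the minus strand from position -56. Among windows of tested genes 14.2% held one. Nqo1 had none in this window, which says nothing of sites farther away, and Sod3 and Gclc were not searched. The Sod1 window (chr16:90220512-90220811, plus strand) is shown with the match in capitals, as it is the only one of the set and belongs to the gene with the largest decrease.
Sod1 window: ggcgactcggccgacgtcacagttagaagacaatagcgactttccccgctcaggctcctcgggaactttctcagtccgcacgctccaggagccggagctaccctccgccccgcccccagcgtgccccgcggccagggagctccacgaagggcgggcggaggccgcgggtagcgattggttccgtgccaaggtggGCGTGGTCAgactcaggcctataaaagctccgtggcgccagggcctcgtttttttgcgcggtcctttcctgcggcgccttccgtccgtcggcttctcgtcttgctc

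Levels of different genes were compared per kilobase of the longest coding transcript. Gpx3 led at 11284 ± 1872 CPM per kb in WT (SD, n = 3). Gpx1 (1363 ± 54.6), Sod1 (1132 ± 160), Prdx5 (930 ± 67.3) and Gpx4 (864 ± 83.1) formed a second tier, followed by Prdx3 (128 ± 9.75), Sod3 (88.0 ± 3.23) and Sod2 (49.7 ± 3.68). Nqo1 (39.6 ± 6.69) and Gclc (34.5 ± 15.1) were lowest. The neighbours Sod1 and Prdx5, Prdx5 and Gpx4, Sod2 and Nqo1, and Nqo1 and Gclc did not differ beyond their spread. With the shortest coding transcript Prdx5 would stand at 2344 and Gpx1 at 2238 CPM per kb, so the order within the second tier depends on the transcript. The low ranks of Sod2 and Sod3 rest on 1 long coding transcript each, of 5861 and 3738 bases. The annotation used for the counts is not given, so their ranks depend on the transcript as well. In KO_PBS, Gpx3 was at 7663 ± 2405 and Sod1 at 441 ± 64.8 CPM per kb, and Gpx4 (580 ± 23.0) then stood above Sod1.

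Other genes of the same pathways were counted on lists. For every list, the share of all tested genes called in KO_PBS against WT was 14.6% higher and 9.85% lower. Of the partners of superoxide dismutase both tested genes fell in KO_PBS. Cat, the catalase that removes hydrogen peroxide in peroxisomes, went from 868 ± 83.2 CPM in WT to 293 ± 102 CPM, a change of -1.57 ± 0.35 (edgeR adjusted p = 0.0133). Ccs, the copper chaperone of Sod1, was at -1.06 ± 0.24 (adjusted p = 0.0148). Among the other glutathione peroxidases, 2 of the 3 tested rose and 1 fell. Gpx7, an enzyme of the endoplasmic reticulum, rose by 2.40 ± 0.37 from 1.67 ± 0.44 to 8.82 ± 2.20 CPM (adjusted p = 0.00311), and Gpx8 (listed as 2310016C16Rik) rose by 0.76 ± 0.23 (adjusted p = 0.0411). Gpx6 was lower at a level of 2.37 ± 0.73 CPM in WT. Of 5 other peroxiredoxin genes with sulfiredoxin, Prdx6 fell by 0.41 ± 0.13 and Srxn1, which repairs oxidised peroxiredoxins, rose by 0.52 ± 0.14.

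In the thioredoxin and glutaredoxin system 5 of 10 genes fell in KO_PBS and none rose, with a median of -0.32. They included the mitochondrial Txn2 at -0.75 ± 0.18 (edgeR adjusted p = 0.0197), Txnrd2 at -0.61 ± 0.16 and Glrx2 at -0.62 ± 0.14, and also Txnrd3 at -0.59 ± 0.15. Of 9 genes of glutathione synthesis and turnover 2 fell and 1 rose, where 9.85% of all genes were called lower and 14.6% higher. Ggt1, which splits extracellular glutathione at the tubular brush border, fell by 1.29 ± 0.36 (1122 ± 193 to 459 ± 168 CPM, adjusted p = 0.0322), and Ggct (listed as A030007L17Rik) was at -1.53 ± 0.30. Chac1, which degrades glutathione, rose by 0.84 ± 0.25, from 1.07 ± 0.18 to 1.93 ± 0.19 CPM. Of 10 genes that supply NADPH, Idh2 (-0.84 ± 0.21), Nnt (-1.23 ± 0.32) and Me3 (-0.61 ± 0.18) fell, all of them mitochondrial, and Pgd of the pentose phosphate pathway rose by 0.60 ± 0.11.

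Among 10 genes for NRF2 and its regulators 1 was called in KO_PBS, Maff, a small partner protein of NRF2, which rose by 2.10 ± 0.56 (edgeR adjusted p = 0.0265). Nfe2l2 itself was at 0.10 ± 0.14 (adjusted p = 0.642) and Keap1 at 0.02 ± 0.10 (adjusted p = 0.902), both named after their values were seen. Of 21 other NRF2 target genes 4 rose and 2 fell, with a median of -0.11, where 14.6% of all genes were called higher and 9.85% lower. Hmox1, which degrades heme, rose from 18.4 ± 5.95 to 63.2 ± 12.9 CPM (1.78 ± 0.27, adjusted p = 0.00266), and Cbr3, a carbonyl reductase, rose by 1.44 ± 0.27 (adjusted p = 0.00644), with Pgd and Srxn1. Cbr1 was lower by a fitted -2.43 ± 0.61, but its WT mean of 296 ± 211 CPM shows how unlike the WT libraries were, and its groups overlapped. Nqo1 fell in the same comparison in which Hmox1 and Srxn1, other targets of NRF2, rose and 2 others, Cbr1 among them, were called lower.

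**Figure D4:**
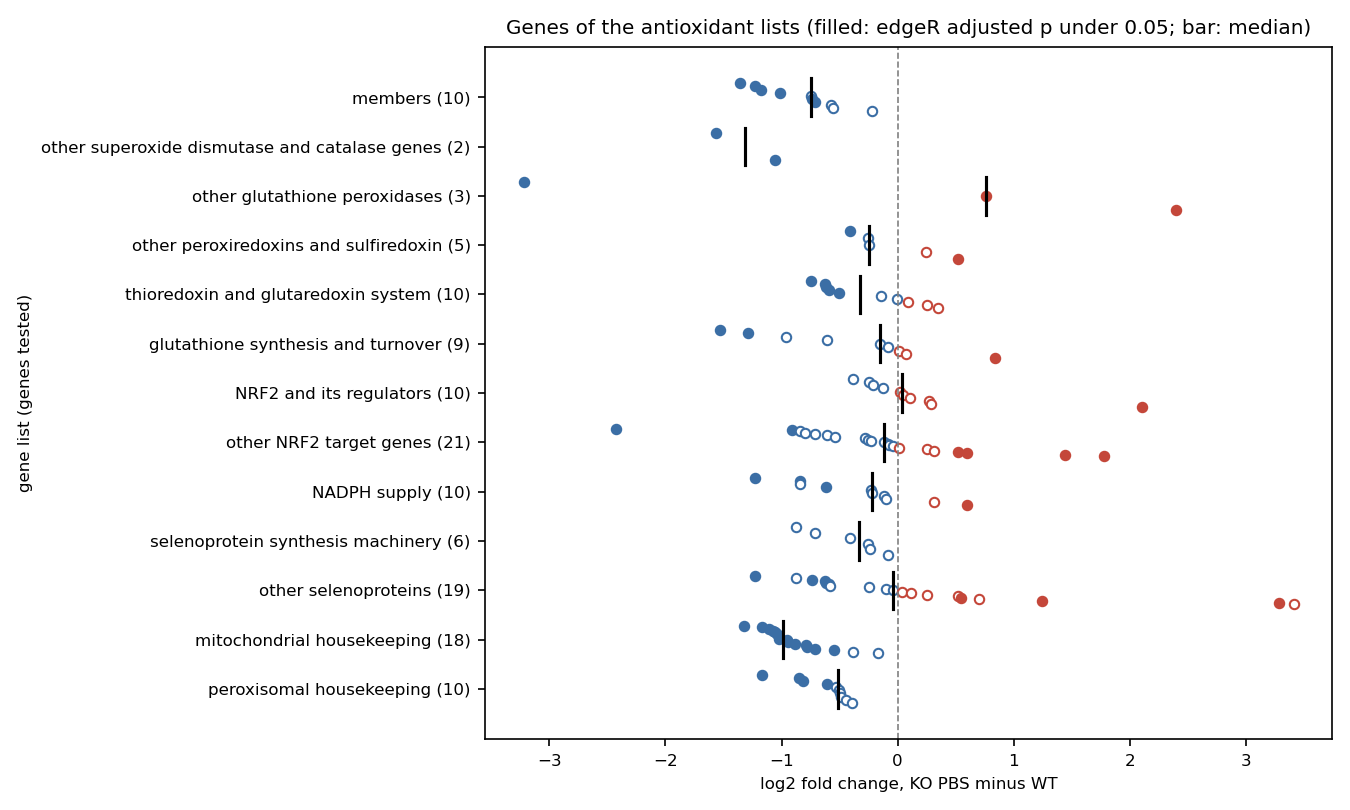
edgeR log2 fold change of KO PBS minus WT (horizontal axis) for each tested gene of the lists (rows, number tested in brackets); filled points have an adjusted p under 0.05, and black bars are list medians. The mitochondrial list lies wholly below 0 with a median of -0.98, while the other NRF2 target genes lie on both sides of 0.

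None of the 6 genes of the selenoprotein synthesis machinery passed, with Sephs2, which makes the selenium donor, lowest at -0.87 ± 0.28 (edgeR adjusted p = 0.0537) and Pstk at -0.41 ± 0.18 (adjusted p = 0.133). Of 19 other selenoproteins 3 rose and 5 fell, where 14.6% of all genes were called higher and 9.85% lower. Selenon (listed as Sepn1) rose by 1.25 ± 0.18 and Dio3, a deiodinase that inactivates thyroid hormone, by 3.29 ± 0.64 from 0.30 ± 0.23 CPM, while Msrb1 (listed as Sepx1), a methionine sulfoxide reductase, was at -0.74 ± 0.19. In the comparison of the inhibitor with PBS none of the pathway lists held a called gene.

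Several of the enzymes that fell are mitochondrial or peroxisomal, and so the general genes of those organelles were counted. Of 18 mitochondrial genes 16 fell in KO_PBS and none rose, with a median of -0.98. Ndufv1 of respiratory complex I (-0.95 ± 0.18, edgeR adjusted p = 0.00784) and Sdhb of complex II (-1.32 ± 0.26, adjusted p = 0.00842) had the lowest p-values. Of 10 peroxisomal genes 4 fell, with a median of -0.51, among them Scp2 (-1.17 ± 0.28) and Pex3 (-0.81 ± 0.19). In the inhibitor comparison the medians of these lists were 0.44 and 0.30, with no gene called.

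Set against the summed mitochondrial list, a ratio chosen after the values were seen, Sod2 stood at 2.08, 2.13 and 2.12 CPM per 100 CPM of the list in WT and at 1.69, 1.91 and 1.83 in KO_PBS. The KO_PBS ratios lay below those of WT, though by less than the CPM values did. Prdx3 went the other way, at 1.33, 1.43 and 1.34 in WT and 1.78, 1.77 and 1.42 in KO_PBS, with overlap at KO_PBS 3. Prdx5 overlapped, at 8.56 ± 1.30 in WT and 7.11 ± 0.41 in KO_PBS (SD, n = 3).

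Many, though not all, markers of the tubule segments were called lower in KO_PBS, and most of those of immune cells, fibroblasts and injured tubule higher. Of 12 proximal tubule markers 7 fell and none rose in KO_PBS, with a median of -1.50. Their summed level was 23059 to 42693 CPM in WT, 2628 to 10922 CPM in KO_PBS and 7729 to 23464 CPM in KO_antimiR21. Kap, an androgen-regulated gene, made up a large part of that sum in WT (15737 ± 12287 CPM, SD, n = 3). Without it the sums were 12774 to 17561, 2287 to 6653 and 5376 to 10604 CPM, so the inhibitor group no longer overlapped WT. Among segments further along the nephron, 4 of 7 markers fell for the distal convoluted tubule with the thick ascending limb, and 5 of 8 for the collecting duct. Podocyte markers summed to 227 to 433 CPM in WT and 319 to 450 CPM in KO_PBS, with 1 of 6 higher, and 1 of 6 endothelial markers was lower. Across all tested genes 14.6% were called higher and 9.85% lower in this comparison, so these counts of 1 of 6 are near those shares. Of 8 macrophage markers 7 rose (sums of 167 to 199 CPM in WT and 718 to 924 CPM in KO_PBS), as did 5 of 6 fibroblast markers (252 to 289 and 1511 to 1997 CPM), 6 of 6 T cell markers, 2 of 3 neutrophil markers and 5 of 5 markers of injured tubule. In KO_antimiR21 the sums were 344 to 716 CPM for macrophage, 457 to 937 CPM for fibroblast and 7699 to 20616 CPM for injured tubule markers, the last against 1260 to 2109 CPM in WT and 16679 to 27799 CPM in KO_PBS. The fibroblast sums of the inhibitor group lay below those of KO_PBS without overlap. The macrophage sums were barely apart, with KO_antimiR21 2 at 716.2 CPM almost level with KO_PBS 2 at 718.1 CPM. Of single markers, Col1a1 (-1.43 ± 0.38), Col3a1 (-1.30 ± 0.35), Acta2 (-1.20 ± 0.29) and Pdgfrb (-0.76 ± 0.26) were lower than in KO_PBS without overlap. Slc12a1 (0.86 ± 0.31), Kcnj1 (0.60 ± 0.22), Egf (2.09 ± 0.82) and Pvalb (2.48 ± 0.60) were higher without overlap. Each of these, named after their values were seen, had an edgeR adjusted p of 0.707. Umod, Slc12a3 and Cldn16 of the same list as Pvalb overlapped. Slc4a1, Atp6v1g3 and Atp6v0d2 of the collecting duct were also higher without overlap, and the others of that list overlapped. Across all tested genes 3.83% were higher without overlap in this comparison, and none was called by edgeR. Erythroid genes summed to 31.6 to 79.7 CPM in WT, 1.67 to 7.98 CPM in KO_PBS and 19.9 to 202 CPM in KO_antimiR21. No marker found in the tables was at 0 in every library. The part of these shifts in the values of the 10 enzymes was not tested, for either comparison.

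Gpx3, which is made chiefly by the proximal tubule, was also set against the proximal tubule markers without Kap, in a ratio chosen after the values were seen. The ratio was 118, 116 and 132 CPM per 100 CPM of markers in WT 1, 2 and 3. In KO_PBS 1, 2 and 3 it was at 352, 235 and 235, and in KO_antimiR21 1, 2 and 3 at 248.7, 250.1 and 176.3. In this ratio every knockout library was above every WT library, while the Gpx3 level itself overlapped between the groups. The marker sum without Kap was 14801 ± 2477 CPM in WT, 4817 ± 2265 in KO_PBS and 8186 ± 2636 in KO_antimiR21. It fell by more than Gpx3 did, so the higher ratio follows from values given above and is not a separate result. Sod1 set against the same markers overlapped between the groups, at 5.06 ± 1.40 in WT and 6.84 ± 3.12 in KO_PBS (SD, n = 3).

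The profile of each gene over the 9 libraries, as log2 CPM centred on its own mean, was compared with those of 12474 tested genes by the root mean square difference. Sod1 and Prdx5 were the closest pair of the set, at 0.0968, and none of those genes came nearer to Sod1 than Prdx5. Glod5 (0.111) and Abhd14b (0.112) came next. Near to Sod2 were Pet112l (0.060) and Cryl1 (0.0726), nearest to Sod3 Mdh2 (0.0739), Sbk1 (0.0757) and BC022224 (0.0773), and nearest to Prdx3 Scoc (0.0589), Pex13 (0.0687) and Idh3a (0.0725). Prdx5 was nearest to Sdhb (0.081), AK045413 (0.0848) and Akr7a5 (0.0897), and Nqo1 to D430041B17Rik (0.0774), Slc38a3 (0.113) and Nkiras1 (0.115). The genes Sod1 and Gclc were the farthest apart within the set, at 0.638.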

How the data were processed

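Per the labels' protocols, 150 ng of total kidney RNA went into each of 9 TruSeq RNA v2 libraries. The authors deposited expected counts per gene symbol for each library, made with Bowtie and RSEM on the mm9 build, per the submitters' processing notes. Tool versions, annotation and strandedness are not given in the sources used here. Reads of overlapping and antisense genes therefore cannot be told apart. The authors also deposited a log2 matrix, and limma is among the tools of the submitters' processing notes. Its values were log2 CPM shifted by 1 constant per library.

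The deposited expected counts were first rounded to whole numbers, then filtered with filterByExpr of edgeR 4.0.16 (R 4.3.3). All 9 libraries entered 1 fit of 3 group means with TMM factors (0.894 to 1.15), and the quasi-likelihood F test was two-sided. Values after ± are SE for log2 fold changes and SD for CPM (n = 3). DESeq2 1.42.0 and limma 3.58.1, other scalings, covariates and left-out libraries were alternatives. The edgeR test of KO_PBS against WT was checked on simulated counts with known changes, 50 genes for each size of change. It recovered 36% of genes set to 2 times and 32% of those set to 0.5 times their level. For 4 times and 0.25 times it recovered 92% and 94%, so many changes of the smaller size were missed in the simulation. Far fewer of its 17130 genes were changed than the 4226 called in the data. The adjusted threshold was therefore stricter there, and these shares do not give the recovery in the data.

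The 10 genes and the lists were chosen with earlier results of these data known. From each list the text draws on genes past the threshold, at most the 4 with the lowest p in a comparison, or the 2 with the lowest p where none passed, and it names part of them. Genes of like pattern are given for members of the set called in any comparison (mean log2 CPM of at least 2). A gene that this rule takes is not reported here. Groups came from the sample titles. Sex was called from Ddx3y, Eif2s3y, Kdm5d and Uty, at 10 CPM or more for male. Older symbols were matched by hand. Gpx5, Nadk2, Selenov, Hbb-bt and Hba-a1 were not matched and are not analysed here. Figures were drawn with matplotlib 3.10.9.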

Additional observations from a re-analysis of the deposited data

How the results depend on the processing

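In the comparison of KO_PBS with WT, genes called lower (1705) came to 904 with library size only, where calls split 3753 higher and 904 lower in place of 2521 and 1705 and the median of all genes moved from -0.03 to 0.25. They came to 1129 with the replicate block, 1076 with the library code as a covariate and 667 to 1855 leaving out 1 library. With sex as a covariate or among male libraries only, genes higher and lower and members of the set called lower each came to 0, with 4389 and 4396 genes at an unadjusted p under 0.05 by edgeR. Over 20 alternatives Sod3 lost its call in 11, Prdx3 in 10, and Sod1, Sod2, Prdx5 and Nqo1 in the 2 for sex; Gpx4 gained one in 4. The replicate block left Sod3 at an adjusted p of 0.0641 and Prdx3 at 0.0614 and changed no other call of the set. Deviations of same-numbered samples from their group means had correlations of -0.37 to 0.44. With 3 samples per group these values cannot show whether the numbers pair the samples. Gpx1 was 0.052 with library size only. For the inhibitor against PBS, DESeq2 called 7 genes higher and 12 lower, and Gpx1 was -0.072 with the code as a covariate or within L5 (within-code fits were chosen after seeing the data) and -0.027 to 0.30 leaving out 1 library, lowest without KO_antimiR21 1. For the inhibitor against WT, genes lower (74) came to 49 with library size only, 42 with the replicate block, 11 with only the 2 groups, 394 by DESeq2 and 2 to 158 leaving out 1 library; genes higher (1164) came to 696 with only the 2 groups and 651 to 1467 leaving out 1 library. Both came to 0 with sex or the code as a covariate and among males. There Gpx3 was 0.12 with library size only, 0.00080 with no filter, 0.27 with sex, 0.31 among males and -0.16 to 0.17 leaving out 1 library. Gpx1 was 0.060 with library size only and -0.25 to 0.065 leaving out 1 library, and Gclc -0.64 to 0.025, highest without WT 2. The cause was not tested.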
